A study of Homo sapiens with 6 samples.

Results

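The extracellular matrix genes of HEK293A cells were the collagen, laminin, thrombospondin and emilin genes, recognised by gene name, together with 14 single genes for fibronectin, fibrillins, fibulins, SPARC, perlecan, agrin, nidogens, tenascin-C and lysyl oxidases. Of 19922 genes in both deposited tables, 77 carried such a name and 65 had a mean count of at least 10 over the 6 libraries. HEK293A is a derivative of HEK293, a line from human embryonic kidney. In 3 libraries the cells had received small interfering RNAs (siRNAs) against UBE2A and UBE2B at 25 uM each, and in 3 they had received vehicle. All were harvested 48 h later, and both groups were grown in medium with 10% serum. UBE2A and UBE2B are paralogous ubiquitin-conjugating enzymes, the human RAD6 proteins, and the study asks about their part in mechanical sensing and contact inhibition. The control carried no siRNA, so a general response to siRNA and an effect of the knockdown cannot be told apart. No source used here says that the libraries came from separate cultures, so the p-values rest on a spread between libraries that may be technical.

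The extracellular matrix is the secreted scaffold to which cells attach and through which they sense stiffness. Basement membranes are sheets of laminin and collagen IV networks, tied together by nidogens and by the proteoglycans perlecan and agrin. Interstitial matrix is made of fibrillar collagens, with fibril-associated collagens on their surface, and of fibronectin, fibrillin microfibrils and collagen VI. Matricellular proteins such as thrombospondins, SPARC and tenascins regulate adhesion more than they bear load, and lysyl oxidases crosslink collagen and elastin. Several of these genes, THBS1 among them, are known to respond to mechanical signals and to the YAP and TEAD transcription factors.

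Libraries held between 10887217 and 14564624 counted reads, of which 4.91% and 4.90% were mitochondrial in the knockdown replicates 1 and 2 and 4.65% or 4.66% in the other 4. Replicates 1 and 2 of each group stood in a first table, while a second table held 1 more library of each group, with no replicate numbers. The tables differed strongly from each other, with 60.7% of the variance along the first principal component, on which both libraries of the second table lay apart from the other 4. UBE2A read 97.9 to 105 counts per 1e+06 reads (CPM, with library sizes scaled by the trimmed mean of M values, TMM) in controls and 49.1 to 57.7 CPM in knockdowns, and UBE2B 61.2 to 64.1 and 46.0 to 55.0 CPM, a partial fall of both targets (adjusted p = 1.51e-12 and 0.0126). UBE2B did not pass once control replicate 2, knockdown replicate 1 or either library of the second table was omitted (adjusted p from 0.0672 to 0.186). The fit held a term for the table. Omitting either library of the second table therefore leaves the knockdown effect to the first table alone. Of 8 marker genes of the line, KRT8, KRT18, NEFL, LIN28B and VIM were abundant (FPKM of at least 7.25 in every library), while NEFM, PAX2 and SALL4 stayed at or below 1.18 FPKM. KRT8, KRT18, NEFL and LIN28B fell after knockdown and the other 4 did not pass, where 1.84% of all genes tested fell by the same rule. The median log2 fold change of the 8 was -0.16. They summed to 1766 to 1973 CPM in controls and 1362 to 1768 CPM in knockdowns, with overlapping groups. The part of these changes and of the mitochondrial share in the results on matrix genes was not tested. Of 8 fibroblast and smooth muscle markers 6 were tested and 0 passed, with a summed level of 27.0 to 32.0 CPM in controls and 31.5 to 33.6 CPM in knockdowns. Their DCN and THY1 stayed under 1 CPM in every library. Of 5 endothelial markers 3 stayed under 1 CPM throughout and the 5 summed to 4.00 to 7.17 CPM in controls and 4.17 to 8.41 CPM in knockdowns. The blood genes PTPRC, CD3E and CD68 were listed at 0 in every library.

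Levels per gene length, given as the authors' deposited FPKM, which each table scales by its own gene lengths, were highest for a matricellular gene and genes of basement membranes. SPARC, a collagen-binding matricellular protein, read 53.9, 58.0 and 58.4 FPKM in the controls (replicates 1 and 2, then the second table) and 59.2, 59.7 and 56.8 FPKM in the knockdowns in the same order. LAMC1, the laminin gamma chain shared by most laminins, read 60.0, 58.6 and 52.7 FPKM in controls and 51.4, 55.9 and 53.1 FPKM in knockdowns. NID1, which links laminin to collagen IV, read 67.7, 64.8 and 49.6 FPKM in controls and 49.6, 57.6 and 42.3 FPKM in knockdowns. These were the highest means of the 65 genes, 57.7 ± 2.10, 55.3 ± 3.44 and 55.3 ± 9.82 FPKM (SD, n = 6). The SD spans both groups and both tables, and a difference in level between these genes was not tested.

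A second tier followed. COL6A1, a collagen VI chain, read 31.2, 32.1 and 39.7 FPKM in controls and 31.0, 32.0 and 41.0 FPKM in knockdowns, and the proteoglycan gene AGRN 35.9, 31.3 and 31.1 FPKM in controls and 28.2, 32.5 and 29.8 FPKM in knockdowns. The fibrillar COL5A1, which nucleates collagen fibrils, read 25.0, 24.3 and 30.3 FPKM in controls and 23.1, 24.3 and 30.4 FPKM in knockdowns. In these genes the groups overlapped, and COL6A1 and COL5A1 were high in both libraries of the second table. FBLN1, a fibulin of elastic fibres and basement membranes, showed the same split, with 19.3, 18.7 and 28.6 FPKM in controls and 19.3, 19.0 and 28.5 FPKM in knockdowns. FBN2, a fibrillin of developing tissue, stood at 23.5, 22.2 and 21.3 FPKM in controls and 22.2, 21.2 and 22.4 FPKM in knockdowns. FN1, which encodes fibronectin, the main integrin-binding adhesive protein, read 20.4, 17.5 and 21.7 FPKM in controls and 17.3, 19.8 and 22.6 FPKM in knockdowns. LAMB2, a laminin beta chain, closed the list of highest levels, with every knockdown above every control: 15.7, 13.3 and 15.1 FPKM in controls and 16.4, 16.5 and 18.0 FPKM in knockdowns. Together the 65 genes took 0.469%, 0.440% and 0.466% of the counts in controls and 0.419%, 0.444% and 0.471% in knockdowns, with overlapping groups.

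Chains that join in one protein in tissues stood at unequal levels. COL1A1 read 2.90 to 5.09 FPKM, while its partner chain COL1A2 had 0 to 2 counts in any library, below the limit of 3 counts that a count of 0 allows. COL6A1 and COL6A2 read 31.0 to 41.0 and 10.8 to 17.0 FPKM and COL6A3 0.0506 to 0.0927 FPKM. Among the collagen IV chains, COL4A1 and COL4A2 read 7.07 to 8.09 and 8.41 to 10.0 FPKM, COL4A5 and COL4A6 4.65 to 8.87 and 3.17 to 4.23 FPKM, and COL4A3 and COL4A4 0.150 to 0.446 and 0.881 to 1.46 FPKM. The laminin alpha chain with the highest level was LAMA5, at 13.3 to 17.7 FPKM, and the others, LAMA1, LAMA4, LAMA3 and LAMA2, ranged from 0.0839 to 3.31 FPKM. The tables give different lengths to COL6A1, COL6A3, COL4A3, COL4A4 and LAMA2, so their ranges also hold a difference of gene model. LAMA2, with 26419 and 10358 bases, read 0.0839 to 0.110 FPKM in the first table and 0.359 and 0.452 FPKM in the second. The 12 names below the minimum were LAMB4 and COL6A5, with 0 counts in all libraries, and COL1A2, COL22A1, COL15A1, COL10A1, COL6A6, COL20A1, COL11A1, FBLN2, COL8A1 and COL9A1, with 14 counts at most in any library. At the minimum, COL8A2 stood just inside with a mean of 13.2 counts and COL9A1 just outside with 9.17.

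**Figure D1:**
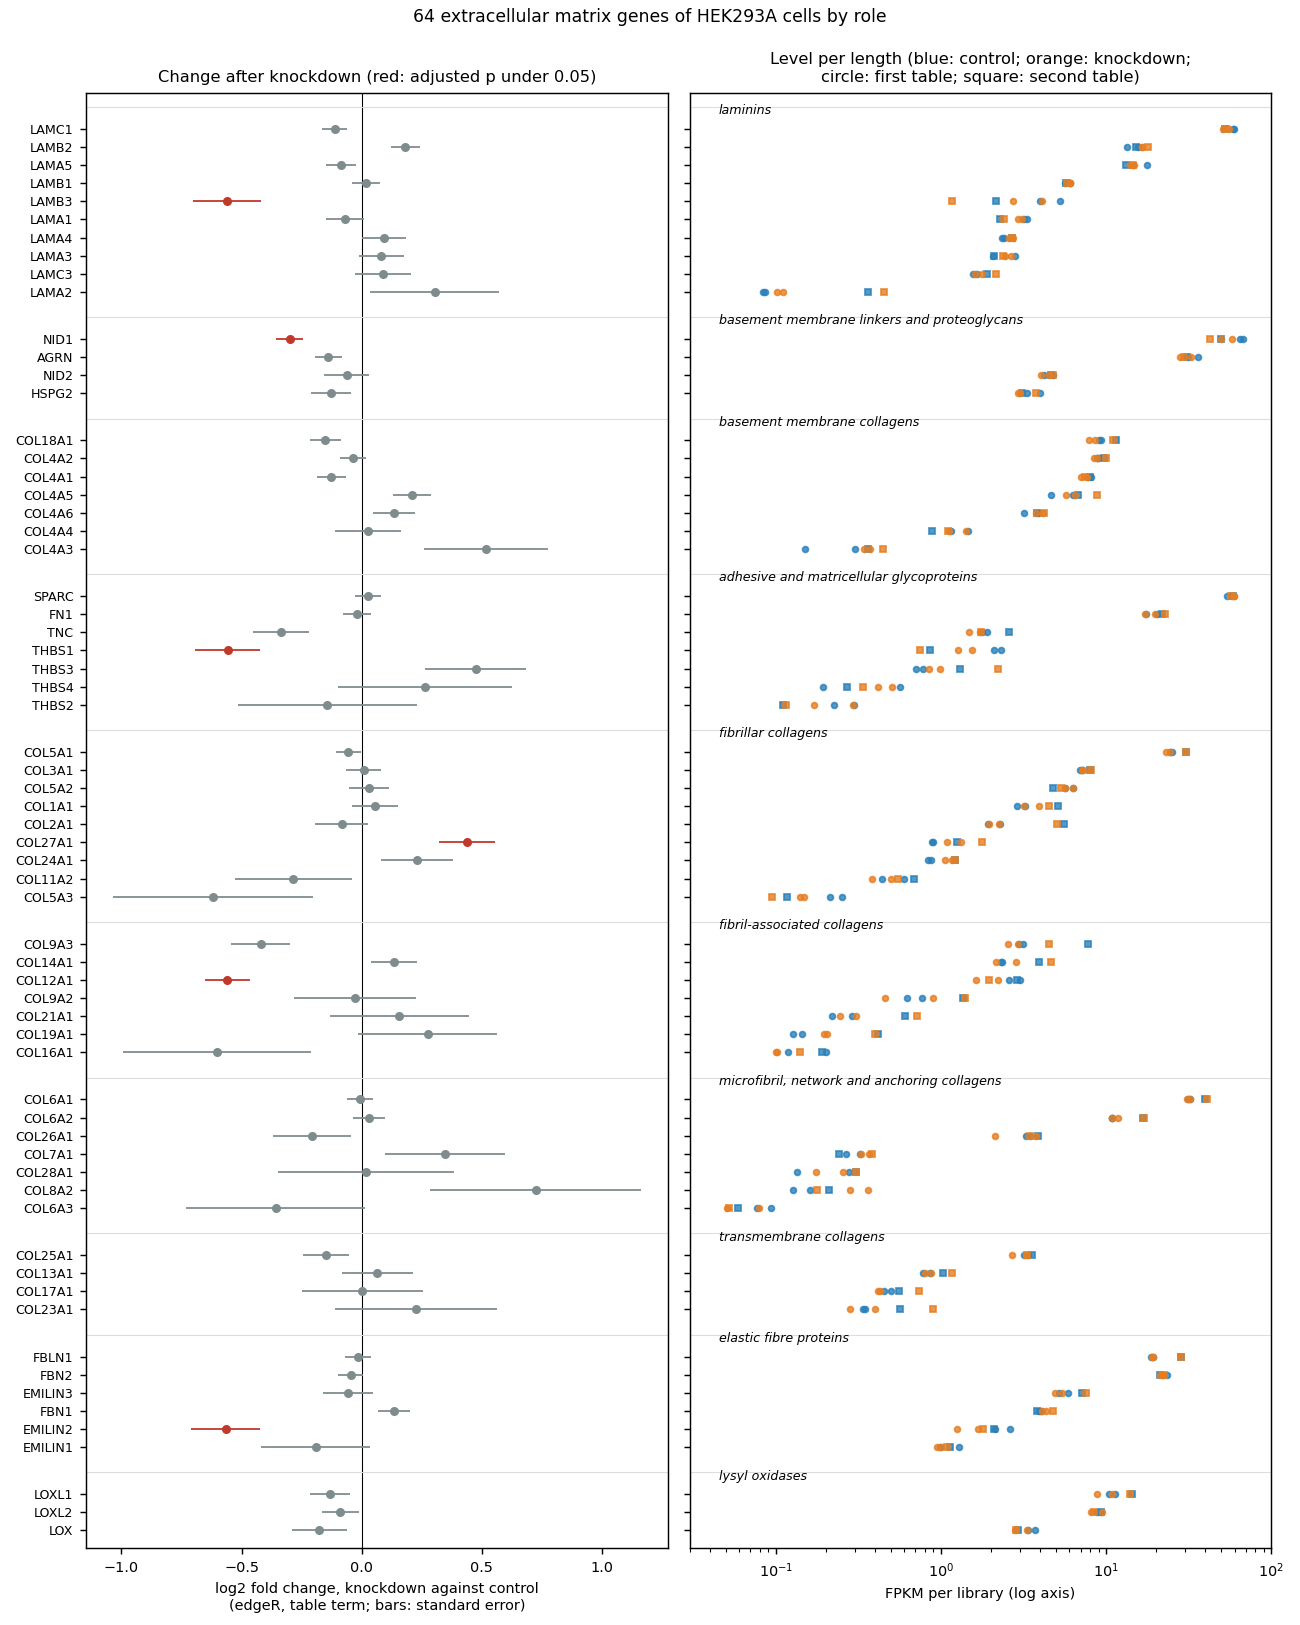
Left, log2 fold change with its standard error of 64 of the 65 matrix genes, knockdown against control, grouped by role; right, FPKM in each of the 6 libraries on a log axis. The 6 genes in red passed the threshold, 5 lower and 1 higher, and levels spanned from 0.0682 FPKM on average for COL6A3 to 57.7 for SPARC.

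After knockdown, 5 of the 65 matrix genes fell and 1 rose, at an adjusted p under 0.05 in edgeR's quasi-likelihood test with the table as covariate. COL12A1, NID1, THBS1, EMILIN2 and LAMB3 were lower, COL27A1 was higher, and 59 did not pass. Over all 13565 genes tested the same rule called 2.47% (1.84% lower and 0.627% higher), against 9.23% of the matrix genes (7.69% lower and 1.54% higher). In bulk RNA, fewer cells that express a gene and less of its RNA per cell cannot be told apart. The median of the mean counts was 288 over the matrix genes and 433 over all genes tested. The median log2 fold change was -0.02 over the 65 and 0.00 over all tested, and 36 of the 65 values were negative and 29 positive. Without a term for the table edgeR called 0 of the 65 and 0% of all genes, with 2 of the 65 and 2.39% of all genes at an unadjusted p under 0.05. DESeq2 with the table term called 2, COL12A1 and NID1, of the 34 members to which it gave an adjusted p (2.38% over all genes, 2.09% lower and 0.292% higher), and left the other 4 without one. The first table alone called 4, all lower, in edgeR (1.24% of all genes, 1.05% lower and 0.192% higher). Omitting control replicate 2 left 3 calls (0.833% of all genes), and omitting knockdown replicate 1 left COL12A1 alone (0.665%). Omitting control replicate 1 gave 6 calls (3.21%), of which 3 were among the 6 above.

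The start regions of the called genes other than LAMB3 are shown because the study concerns mechanical signalling, for which TEAD factors are a known endpoint. LAMB3 has 3 RefSeq starts, and their windows are described below without the sequence. Each window runs from 250 bases before to 50 after a RefSeq transcript start (build GRCh38.p14), in gene direction. Capitals mark GGAATG or its reverse complement CATTCC, the core of the TEAD motif, and TGAGTCA or TGACTCA, the AP-1 motif. The windows are chr6:75206004-75206303 (minus strand) for COL12A1, chr18:2846756-2847055 (plus) for EMILIN2, chr15:39580829-39581128 (plus) for THBS1, chr1:236065041-236065340 (minus) for NID1 and chr9:114155287-114155586 (plus) for COL27A1.
COL12A1: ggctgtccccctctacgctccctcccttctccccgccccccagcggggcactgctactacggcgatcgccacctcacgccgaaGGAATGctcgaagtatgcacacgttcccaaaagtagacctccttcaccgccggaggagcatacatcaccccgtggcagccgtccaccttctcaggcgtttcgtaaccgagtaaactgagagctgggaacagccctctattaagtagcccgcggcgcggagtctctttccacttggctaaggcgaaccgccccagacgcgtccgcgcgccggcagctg
EMILIN2: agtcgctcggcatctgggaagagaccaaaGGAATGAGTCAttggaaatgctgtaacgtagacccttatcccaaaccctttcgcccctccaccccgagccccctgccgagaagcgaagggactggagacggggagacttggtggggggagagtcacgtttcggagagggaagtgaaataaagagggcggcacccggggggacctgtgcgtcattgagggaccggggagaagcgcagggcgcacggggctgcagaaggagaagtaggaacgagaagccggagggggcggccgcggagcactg
THBS1: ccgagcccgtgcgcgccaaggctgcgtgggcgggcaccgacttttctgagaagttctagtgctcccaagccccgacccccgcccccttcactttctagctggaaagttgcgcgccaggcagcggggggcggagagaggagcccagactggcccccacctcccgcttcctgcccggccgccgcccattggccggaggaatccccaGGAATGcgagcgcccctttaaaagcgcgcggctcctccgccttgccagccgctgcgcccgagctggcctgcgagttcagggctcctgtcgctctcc
NID1: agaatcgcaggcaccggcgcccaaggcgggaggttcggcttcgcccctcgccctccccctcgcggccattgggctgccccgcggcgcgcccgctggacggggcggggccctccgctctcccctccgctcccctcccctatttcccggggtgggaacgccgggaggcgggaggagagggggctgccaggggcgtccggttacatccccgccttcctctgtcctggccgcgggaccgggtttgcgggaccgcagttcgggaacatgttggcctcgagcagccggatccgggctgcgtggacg
COL27A1: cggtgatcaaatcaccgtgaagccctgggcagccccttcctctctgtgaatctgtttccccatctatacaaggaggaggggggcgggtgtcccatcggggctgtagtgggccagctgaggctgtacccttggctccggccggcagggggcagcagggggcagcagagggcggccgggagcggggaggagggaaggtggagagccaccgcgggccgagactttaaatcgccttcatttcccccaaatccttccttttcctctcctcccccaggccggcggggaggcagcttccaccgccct
GGAATG began 167 bases before the start in COL12A1, 221 before it in EMILIN2 and 46 before it in THBS1. In EMILIN2 it overlapped TGAGTCA, which began 217 bases before the start. Neither motif was in the window of NID1 or COL27A1, and none of the 3 RefSeq starts of LAMB3 had the TEAD core. TGACTCA stood 67 bases before 1 of these, which lies 1051 bases from the start in the deposited tables, and not in the window of the start that equals it. The TEAD core on either strand stood in 14.0% of all 35116 RefSeq start windows and in 12.1% of the 66 windows found for 51 of the 65 matrix genes. The AP-1 motif stood in 4.95% and 4.55%. Also searched, and not marked above, were the GC box GGGCGG, in 45.0% and 63.6%, and TATAAA, in 11.5% and 9.09%. The GC box was in a window of each called gene, and its difference in share was not tested. Besides COL12A1, EMILIN2 and THBS1, the TEAD core was in a window of COL11A2, FBN1, LAMA2, SPARC and THBS2, whose log2 fold changes were -0.28, 0.14, 0.30, 0.03 and -0.14 and did not pass. The RefSeq start equals the start in both deposited tables for EMILIN2, THBS1 and COL27A1 and lies 19 bases from it for NID1. For COL12A1 it equals the start in the second table, 75206053, and lies 214 bases from that in the first.

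COL12A1 (ENSG00000111799, chromosome 6, 75084326 to 75206267 on hg38 in the first table, minus strand) encodes collagen XII, a fibril-associated collagen of tendon, ligament and other loaded tissue. It read 56.6, 49.8 and 36.0 CPM in the controls and 30.5, 42.1 and 24.2 CPM in the knockdowns. Within each table every knockdown was below every control, and over the 6 libraries the groups overlapped, since the second table was lower for both. The means were 47.5 ± 10.5 and 32.3 ± 9.10 CPM (SD, n = 3). EdgeR with the table term gave a log2 fold change of -0.56 ± 0.09 (SE, adjusted p = 1.46e-04). It fell by 32.2%, and the within-table differences were -0.56 and -0.57. Alone of the 6 it passed in edgeR whichever library was omitted, with an adjusted p between 2.30e-05 and 0.0252, and it passed in the first table (adjusted p = 0.00129). That fit and those without a library of the second table rest on the same first-table contrast and are no separate checks. The tables give this gene different lengths, 18860 and 12483 bases, so its table difference mixes gene models with expression.

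NID1 (ENSG00000116962, chromosome 1, 235975830 to 236065109, minus strand), the nidogen that bridges laminin and collagen IV, read 395, 383 and 290 CPM in controls and 285, 336 and 243 CPM in knockdowns. It was the most abundant matrix gene to change, and the knockdown was again lower within each table. Its log2 fold change was -0.30 ± 0.06 (SE, adjusted p = 8.03e-04). It fell by 18.8%, with within-table differences of -0.33 and -0.25. Omitting knockdown replicate 1 ended the call (adjusted p = 0.0600). NID2, the other nidogen, stood at -0.06 ± 0.10 (SE), on the same log2 scale, and the difference between the paralogues was not tested.

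THBS1 (ENSG00000137801, chromosome 15, 39581079 to 39599466, plus strand) encodes thrombospondin-1, a matricellular protein that inhibits angiogenesis and activates latent TGF-beta. It read 19.2, 21.4 and 7.91 CPM in controls and 11.6, 14.3 and 6.71 CPM in knockdowns. The controls of the first table stood highest, and the control of the second table lay below all knockdowns of the first. The log2 fold change was -0.56 ± 0.13 (SE, adjusted p = 0.0134). It fell by 32.1%, and the within-table differences were -0.65 and -0.23. Omitting control replicate 2 ended the call (adjusted p = 0.215), as did omitting knockdown replicate 1 (0.274). Exons of THBS1 share 448 bases with FSIP1 and 411 with AC037198.2 on the opposite strand, of 9158 in all. The strand setting of the counting is not given in the sources used here, so such reads cannot be told apart.

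EMILIN2 (ENSG00000132205, chromosome 18, 2847006 to 2916003, plus strand), a glycoprotein of the elastic fibre interface, was the only called gene whose groups did not overlap over the 6 libraries. It read 17.0, 14.0 and 13.6 CPM in controls and 7.98, 11.0 and 11.5 CPM in knockdowns. The means were 14.9 ± 1.82 and 10.2 ± 1.90 CPM (SD, n = 3). EdgeR with the table term gave a log2 fold change of -0.57 ± 0.14 (SE, adjusted p = 0.0202), and the gene fell by 32.4%. Knockdown replicate 1 was the lowest library, and the within-table differences were -0.71 and -0.24. Omission of either first-table control ended the call (adjusted p = 0.147 for replicate 1 and 0.0726 for replicate 2), and so did that of knockdown replicate 1 (0.339). EMILIN1 and EMILIN3 had log2 fold changes of -0.19 ± 0.23 (SE) and -0.06 ± 0.10 (SE).

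LAMB3 (ENSG00000196878, chromosome 1, 209614870 to 209652425, minus strand), a beta chain of epithelial laminin, read 24.7, 18.8 and 10.0 CPM in controls and 12.6, 19.1 and 5.35 CPM in knockdowns. Knockdown replicate 2 lay between the controls of its own table. Its log2 fold change was -0.56 ± 0.14 (SE, adjusted p = 0.0203), with within-table differences of -0.47 and -0.89. The call was lost on omission of replicate 1 of the controls (adjusted p = 0.126) or of the knockdowns (0.381), and of either library of the second table (0.108 for the control and 0.154 for the knockdown). The gene also did not pass in the first table alone (0.124). That fit and those without a library of the second table rest on the same first-table contrast and are no separate checks. LAMA3, an alpha chain of epithelial laminin, had a log2 fold change of 0.08 ± 0.09 (SE) and did not pass.

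COL27A1 (ENSG00000196739, chromosome 9, 114155537 to 114312511, plus strand), a fibrillar collagen of cartilage, was the 1 matrix gene that rose. It read 12.4, 12.8 and 17.7 CPM in controls and 18.3, 15.4 and 24.5 CPM in knockdowns. Within each table every knockdown was above every control, and the second table's control lay above knockdown replicate 2. The log2 fold change was 0.44 ± 0.12 (SE, adjusted p = 0.0279), a rise by 35.5%, with within-table differences of 0.41 and 0.47. In the first table alone it did not pass (adjusted p = 0.185). Its call was lost on omission of any library other than knockdown replicate 2, with adjusted p of 0.0577 and 0.124 for the first-table controls, 0.267 for knockdown replicate 1, and 0.181 and 0.191 for the control and knockdown of the second table. The fits without a library of the second table repeat the first-table contrast and are no separate checks.

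**Figure D2:**
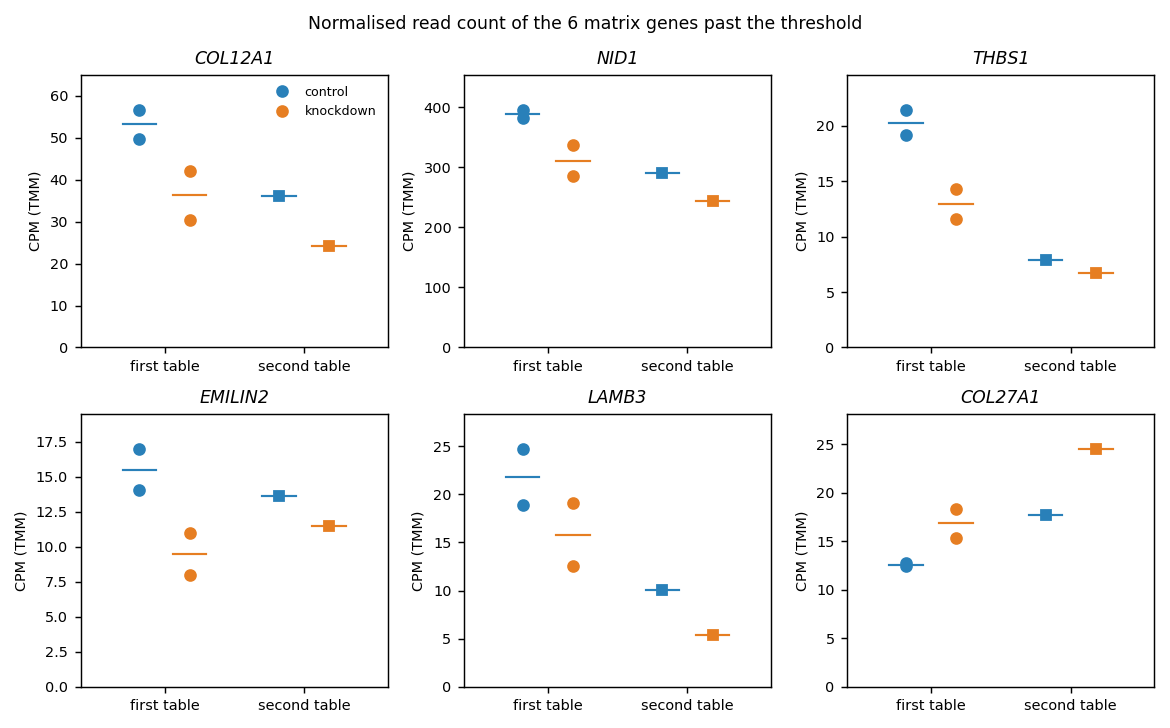
CPM with TMM library sizes (vertical axis, from 0) of the 6 matrix genes past the threshold, for controls (blue) and knockdowns (orange) of the first table (circles) and second table (squares), with lines at the mean of each set. In the 5 lower genes the second table's knockdown lies below its control, and for LAMB3 knockdown replicate 2, at 19.1 CPM, overlaps the controls of its table.

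Basement membrane genes were read as laminins, linkers and collagens. Of 11 laminin chains 1 fell, LAMB3, and 10 did not pass, with a median log2 fold change of 0.02. The abundant chains LAMC1, LAMA5 and LAMB1 had -0.11 ± 0.05 (SE), -0.09 ± 0.06 (SE) and 0.02 ± 0.06 (SE), and LAMB2 had 0.18 ± 0.06 (SE) (adjusted p = 0.114). LAMB2 passed without control replicate 1 (log2 fold change 0.26, adjusted p = 0.0179). LAMA1, LAMA4, LAMC3 and LAMA2 had -0.07, 0.09, 0.09 and 0.30. Of the 4 linkers and proteoglycans NID1 fell, and all 4 were negative: AGRN, which organises synapses and glomerular membranes, had -0.14 ± 0.06 (SE) and HSPG2, which encodes perlecan, -0.13 ± 0.08 (SE). HSPG2 went different ways in the tables, -0.30 and 0.26, and passed without the second table's control (log2 fold change -0.32, adjusted p = 0.0480). It did not pass without the second table's knockdown (adjusted p = 0.0866) or in the first table alone (0.0702). All of these fits take the knockdown effect from the first table. Of 7 basement membrane collagens 0 passed. COL4A1 read 114, 121 and 118 CPM in controls and 103, 113 and 107 CPM in knockdowns, without overlap, and had a log2 fold change of -0.13 ± 0.06 (SE) (adjusted p = 0.321). Its neighbour COL4A2, with which it shares a promoter region, had -0.04 ± 0.05 (SE). COL4A5 and COL4A6, also such a pair, had 0.21 and 0.13, and COL4A3 and COL4A4, likewise paired, 0.52 and 0.03. COL4A5 passed without control replicate 1 (0.36, adjusted p = 0.00111). COL18A1, whose fragment is endostatin, had -0.15.

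Of the interstitial collagens COL12A1 and COL27A1 passed. Of 9 fibrillar collagens 1 rose, COL27A1, and 8 did not pass, with -0.06 ± 0.05 (SE) for COL5A1, 0.01 ± 0.07 (SE) for COL3A1, 0.03 ± 0.08 (SE) for COL5A2 and 0.05 ± 0.10 (SE) for COL1A1. COL2A1, the main collagen of cartilage, had -0.08, COL24A1 0.23, COL11A2 -0.28 and COL5A3, at 23 counts or fewer per library, -0.62. Of 7 fibril-associated collagens 1 fell, COL12A1. COL9A3, a chain of cartilage collagen IX, came nearest to the threshold without passing it, with 14.3, 15.4 and 38.0 CPM in controls and 12.1, 14.3 and 21.5 CPM in knockdowns. Its control in the second table stood far above the other 5 libraries, its within-table differences were -0.17 and -0.82, and its log2 fold change was -0.42 (adjusted p = 0.0551). It passed with limma-voom (0.0337), with no filter beyond 1 count (0.0136), and without control replicate 1 (0.0153) or knockdown replicate 2 (0.0123), and its adjusted p was 0.704 or 0.722 without either library of the second table. COL14A1, COL9A2, COL21A1, COL19A1 and COL16A1 had log2 fold changes of 0.14, -0.03, 0.16, 0.27 and -0.60. In the collagen VI genes COL6A1, COL6A2 and COL6A3 the log2 fold changes were -0.01, 0.03 and -0.36. The other microfibril, network and anchoring collagens, COL26A1, COL7A1, COL28A1 and COL8A2, had -0.21, 0.34, 0.02 and 0.72, the last with a standard error of 0.44 at 8 to 22 counts per library. The transmembrane collagens COL25A1, COL13A1, COL17A1 and COL23A1 ranged from -0.15 to 0.22, and 0 of these 4 and 0 of those 7 passed.

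Among 7 adhesive and matricellular genes THBS1 fell and 6 did not pass. FN1 had a log2 fold change of -0.02 ± 0.06 (SE) and SPARC of 0.03 ± 0.05 (SE). TNC, encoding tenascin-C of healing and developing tissue, read 17.0, 18.5 and 25.1 CPM in controls and 14.1, 16.7 and 16.6 CPM in knockdowns. All its knockdowns lay below all controls, yet the log2 fold change of -0.34 did not pass (adjusted p = 0.135), and it passed without knockdown replicate 2 (-0.45, adjusted p = 0.0440). THBS3, THBS4 and THBS2 had 0.47, 0.26 and -0.14. Of the 6 elastic fibre genes EMILIN2 fell, and FBLN1, FBN2 and FBN1 had -0.02, -0.05 and 0.14. The lysyl oxidases LOXL1, LOXL2 and LOX had -0.13, -0.09 and -0.18 and 0 of 3 passed. Groups did not overlap over the 6 libraries for 7 of 65 genes, EMILIN2, TNC and COL4A1 lower and LAMB2, FBN1, COL4A3 and COL7A1 higher. That is 10.8% of the matrix genes, against 7.67% of all genes tested (3.74% lower and 3.93% higher).

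How far a gene that did not pass was measured depended on its depth. For the 25 matrix genes with a mean of at least 500 counts the standard error was 0.05 to 0.09, and those of them not called had log2 fold changes of at most 0.21 in size. Over all 65 the standard error ran up to 0.44. Of the 65 genes 24 share exon bases with a gene on the opposite strand in GENCODE 29, such as NID2 with RTRAF (1915 of 6392 bases), HSPG2 with LDLRAD2 (2121 of 18104) and THBS3 with an antisense RNA (1027 of 4623), and their counts are uncertain to that extent. No GENCODE 29 gene shares exon bases with COL12A1, NID1, EMILIN2 or COL27A1, and 1 microRNA shares 6 with LAMB3.

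Differences between the tables were larger than those after knockdown for most matrix genes. Between the second and the first table, 29 of 65 matrix genes differed (44.6%, against 38.6% of all genes), 21 higher (32.3%, against 18.7%) and 8 lower (12.3%, against 19.8%) in the second. The size of the log2 difference was larger between tables than between groups in 45 of the 65 genes, with medians of 0.32 and 0.14. LAMB3 and THBS1 had table differences of -1.30 and -1.17, COL12A1 of -0.57, NID1 of -0.39, COL27A1 of 0.52 and EMILIN2 of 0.03. COL2A1, COL21A1 and COL19A1, which did not pass for the knockdown, were higher in the second table by 1.32, 1.30 and 1.29 on the log2 scale. Lengths differed between the tables for 13 of the 65 genes, so such a difference can hold a change of gene model. All 6 called genes kept one sign across the tables, but they were called from both tables together, which favours a shared sign. Of all 65, 39 kept one sign (60.0%), against 58.6% of all genes tested. These shares are of genes not selected by a call and are no measure for the 6.

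Whether the knockdown effect itself differed between the tables was tested with an interaction term. EdgeR called 0 of the 65 (0.00737% of all genes), with 4 at an unadjusted p under 0.05 (6.15%, against 4.66% of all genes), and DESeq2 called 0. The 4 were HSPG2, COL9A3, LAMA5 and COL1A1, named after their values were seen, and the lowest adjusted p was 0.704. The second table has 1 library in each group, so the spread in this test came from the first table.

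**Figure D3:**
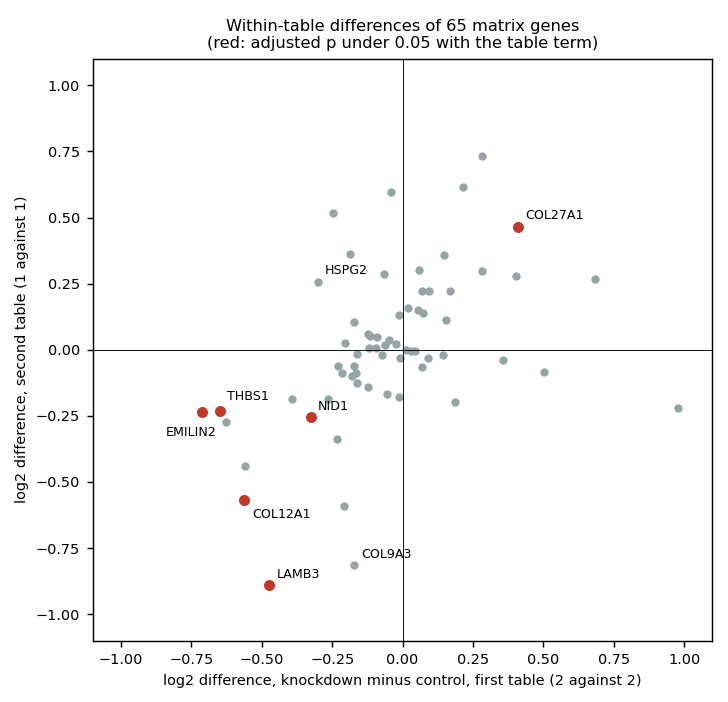
Log2 difference between knockdown and control of 65 matrix genes in the first table (horizontal, 2 libraries against 2) and the second (vertical, 1 against 1). The 6 genes past the threshold (red) share their sign in both tables, from -0.89 for LAMB3 to 0.47 for COL27A1 in the second, and HSPG2 and COL9A3 are labelled for their low interaction p.

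**Figure D4:**
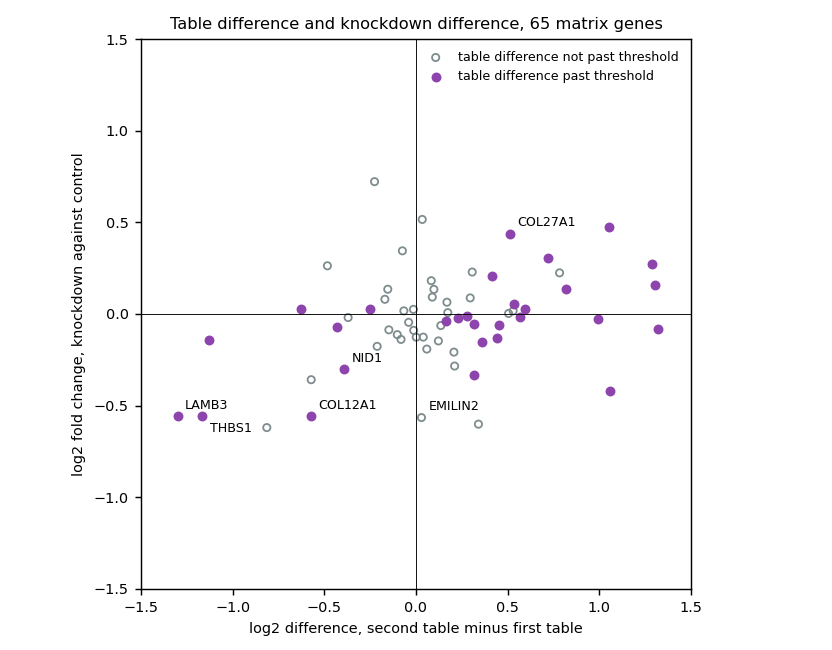
Log2 difference between the second and first table (horizontal) and log2 fold change after knockdown (vertical) of 65 matrix genes on equal scales, filled where the table difference passed the threshold (29 genes). The points spread further along the horizontal axis, to 1.32 for COL2A1, and 5 of the 6 labelled genes also differed between tables.

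Genes that act with these matrix proteins were read in 6 further lists, in which 10 of 130 tested genes fell and 2 rose (9.23% in all, against 2.47% of all genes tested, 1.84% lower and 0.627% higher). Of 44 other matrix glycoproteins and proteoglycans 24 were tested, 2 fell and 2 rose. The matricellular CCN2 and CCN1, well-known YAP targets, had log2 fold changes of -0.74 (adjusted p = 1.58e-07) and -0.58 (3.19e-06), from 93.0 to 56.0 CPM and from 122 to 80.9 CPM. VCAN, the proteoglycan versican, and SMOC1, a SPARC-related calcium-binding protein, rose by 0.33 (0.00224) and 0.34 (0.0217) on the log2 scale. Of 26 tested matrix proteases and inhibitors 2 fell, the membrane protease gene ADAM9 (-0.43, adjusted p = 8.73e-06) and the metalloprotease inhibitor gene TIMP3 (-0.30, 0.0239), and 24 did not pass. Of 30 tested matrix receptors 2 fell, CD44, which binds hyaluronan (-0.32, 0.00959), and ITGB1, the main beta integrin (-0.18, 0.0400). Of 29 genes of collagen synthesis and processing 2 fell, the lysyl hydroxylase gene PLOD1 (-0.21, 0.0434) and TMEM38B, an endoplasmic reticulum cation channel (-0.25, 0.0171). Of 19 tested TGF-beta pathway genes 2 fell, the ligand gene TGFB2 (-0.61, 0.0364) and the receptor gene TGFBR1 (-0.26, 0.0162). The lysyl oxidases LOXL3 and LOXL4 had -0.02 and 0.00. List medians lay between -0.03 and 0.01. CCN2, CCN1 and ADAM9 passed in edgeR with each library left out, and each of the other 9 lost its call in at least 2 of the 6 such fits. Without knockdown replicate 1 PLOD1 read -0.13 (0.499) and VCAN 0.20 (0.153). Omitting control replicate 2 left those 3 calls of 12 (0.833% of all genes), omitting knockdown replicate 1 left 5 (0.665%), and omitting the second table's control left 7 (1.38%) and its knockdown 6 (1.08%). These lists were chosen with earlier results of these data known, as were the matrix genes themselves.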

How the data were processed

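The counts were deposited by the authors as whole reads per gene; HISAT2, HTSeq and hg38 are named in the submitters' processing notes, without versions. FPKM values were deposited too and equal the count per kilobase of the table's gene length and 1e+06 counted reads, as recomputed. The first table held 4 libraries and 19987 genes, the second 2 libraries and 19973 genes, joined by Ensembl identifier into 19922 shared genes. The second table's columns name the group only (control and siRAD6), and siRAD6 was read as the knockdown because UBE2A and UBE2B are the human RAD6 genes. A count of 3 is worth 0.207 to 0.272 CPM with TMM library sizes, which covers counting error alone. Every pair of libraries differed by more than sampling noise (chi-square per gene of at least 3.52).

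Genes with a mean count of at least 10 over the 6 libraries (13565) entered edgeR 4.0.16 in R 4.3.3, with TMM factors, table and group as terms and the quasi-likelihood test. P-values were adjusted by Benjamini-Hochberg over all of them, with a threshold of 0.05. Standard errors are the log2 fold change over the square root of F. CPM values use TMM library sizes. Within-table differences are of mean log2 CPM (prior count 2), and the 1 pair of the second table allows no test. The fit was first tested on simulated data. Alternatives were the group alone, RLE factors, other filters, DESeq2 1.42.0, limma-voom (limma 3.58.1), blocks by replicate, the first table alone and each library left out. Omitting either library of the second table leaves the other to the table term, so these fits and the first table alone estimate the same contrast. The members and lists were chosen with earlier results of these data known. Genes were named by rule: each member past the threshold, the 10 highest by mean FPKM, and the other members with their change; from the other lists, those past the threshold or else the most abundant. COL9A3, TNC and COL4A1 were given by library after their values were seen. The values of 1 matrix gene are not reported here. Start windows are from RefSeq (GRCh38.p14) and exon overlaps from GENCODE 29.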

Additional observations from a re-analysis of the deposited data

How the results depend on the processing

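Without a table term edgeR called 0 of the 65 matrix genes, 0 of 13565 genes and 0 genes of the other lists, where 6, 335 and 12 passed with the table term; the tables' difference then counts as spread within groups. DESeq2 called 2, 204 and 7, having given an adjusted p to 34 of the 65, 8568 of all genes and 83 of the 130. The first table alone gave 4, 168 and 6, with fewer libraries. Leaving out 1 library gave 1 to 8 matrix genes, 90 to 435 genes over all and 3 to 10 of the other lists. RLE factors, the 3 other filters on low counts and limma-voom gave 6 or 7 matrix genes, the 6 among them in each. No called matrix gene changed its sign under any of these alternatives, and the median of the matrix genes stayed between -0.06 and 0.00. Levels per length by TMM library sizes named the same 10 highest genes. The replicate numbers cover 2 pairs, whose deviations from the group means correlated at 0.02 across genes, so they were not taken as pairing the samples. With the replicate block in place of the table term 7 matrix genes and 366 genes over all passed, the seventh being COL9A3 (adjusted p = 0.0493). Table differences called 25 to 29 matrix genes and the interaction 0 under each alternative run. Depth limits the genes under about 50 counts, whose standard errors reach 0.44.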
